A study of Mus musculus with 6 samples.

Results

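The precursors mir-378a, mir-151 and mir-423 of the mouse retina, listed as mmu-mir-378a, mmu-mir-151 and mmu-mir-423, are 3 of the 855 miRNA precursors with deposited values. They were picked by name because, in the comparison of retinas with and without Dicer1 in rods, they do not share the rise of most other precursors. The levels and the genotype differences of these 3 precursors are therefore given as a description, without a test. All 3 passed the filter on low values, a mean of at least 10 RPKM (reads divided by the length of the precursor and by the library total) over the 6 libraries, as did 461 precursors in all.

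The study sequenced small RNAs from whole retinas of 4-week-old mice on a mixed C57BL/6J - SJL background. Both groups were homozygous for floxed Dicer1 (Dicerfl/fl). The cKO group also carried the iCre75 transgene, which expresses Cre recombinase in rods from a rhodopsin promoter, and the control group consisted of littermates without it, so that no group carried iCre75 on intact Dicer1. Each genotype had 3 libraries, which the labels call biological replicates, each made from a pool of 6 retinas, and library totals worked out from the values lay between 5480940 and 7478237 reads. The p values below measure the spread between pools. Dicer1 mRNA was not analysed here.

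Dicer1 is the RNase that cuts the hairpin of a miRNA precursor into a short duplex, of which one arm is loaded into an Argonaute protein and pairs with target mRNAs through its seed, bases 2 to 8. All 3 precursors are intronic: they are cut from the introns of protein-coding host transcripts, and a miRNA of this kind is usually made where its host is transcribed. The host of mir-378a is Ppargc1b, which encodes PGC-1β, a coactivator of genes of mitochondrial energy metabolism, and miR-378 is known for its part in the same metabolism. The host of mir-151 is Ptk2, which encodes the focal adhesion kinase, and in human liver cancer cells miR-151 is known to act on cell migration together with that kinase. The host of mir-423 is Nsrp1, which encodes a splicing regulator, and miR-423 is often used as a reference in small RNA measurements because its level varies little between tissues.

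In the GENCODE annotation each of the 3 lies on the strand of its host and within an intron. This holds in 2 of 2 protein-coding Ppargc1b transcripts that span mir-378a, in 2 of 2 Ptk2 transcripts that span mir-151 and in the 1 Nsrp1 transcript that spans mir-423. Host mRNAs were not analysed here.

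Of the 3 precursors, 1 had a hairpin in the RefSeq table used for sequences. The hairpin of mir-423 is shown because both of its arms are counted together in the values below, and capitals mark the arms miR-423-5p (bases 29 to 51) and miR-423-3p (bases 65 to 87) in its 109 bases. It lies at chr11:77078064-77078172 on the minus strand (RefSeq, GRCm38.p6), a build other than the mm9 of the deposited values.
mir-423 hairpin: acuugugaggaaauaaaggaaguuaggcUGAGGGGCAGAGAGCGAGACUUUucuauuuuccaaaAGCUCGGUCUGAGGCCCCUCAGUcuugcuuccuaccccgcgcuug

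The mature arms are shown next, with the seed in capitals. For mir-151, which belongs to the miR-28 family by precursor sequence, the 5p arms of its relatives mir-28a and mir-708 are shown.
miR-423-5p: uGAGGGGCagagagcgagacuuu
miR-423-3p: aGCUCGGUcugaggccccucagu
miR-28a-5p: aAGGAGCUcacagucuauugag
miR-708-5p: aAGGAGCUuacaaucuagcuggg

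Among 1679 mature mouse miRNAs of the table, the seed of miR-423-5p was shared with 1 other, miR-6921-5p, and that of miR-423-3p with none. The arms miR-28a-5p and miR-708-5p shared a seed with each other and with no further mature miRNA of the table. That table held no mature arm of miR-151 or miR-378a, so their seeds were not compared. No other precursor with a hairpin in the table had a window of 20 bases in common with mir-423 at up to 1 mismatch.

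The precursor mir-378a stood at 39288, 33812 and 34540 RPKM in control 1 to 3 and at 32057, 36238 and 36037 RPKM in cKO 1 to 3. The highest value was in control 1 and the lowest in cKO 1, and the groups overlapped. The control mean was 35880 ± 2974 RPKM and the cKO mean 34777 ± 2358 RPKM (SD, n = 3 each). The log2 difference was -0.044 (SE 0.12), here and below cKO minus control on the log2(RPKM + 1) scale. Each SE is from the limma fit, which draws the variance of a precursor toward a trend over all tested precursors. It is therefore not the spread of that precursor alone.

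The precursor mir-151 stood at 25315, 30589 and 31831 RPKM in control 1 to 3 and at 29549, 28132 and 27875 RPKM in cKO 1 to 3. Control libraries held both the lowest and the highest value, and all 3 cKO libraries lay between them. The means were 29245 ± 3460 and 28519 ± 902 RPKM (SD, n = 3 each), a log2 difference of -0.030 (SE 0.13).

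The precursor mir-423 stood at 3358, 4631 and 4151 RPKM in control 1 to 3 and at 2591, 3618 and 3189 RPKM in cKO 1 to 3. The groups overlapped through control 1, which lay below cKO 2, and control 2 and control 3 lay above every cKO library. The means were 4047 ± 643 and 3133 ± 516 RPKM (SD, n = 3 each), a log2 difference of -0.37 (SE 0.17). As deposited, the differences of mir-378a and mir-151 were smaller in size than their SE, and that of mir-423 was larger. The members were picked for these values and each genotype has 3 libraries, so this does not show that a level is flat. Under other scalings all 3 lay further below 0, as given below.

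**Figure D1:**
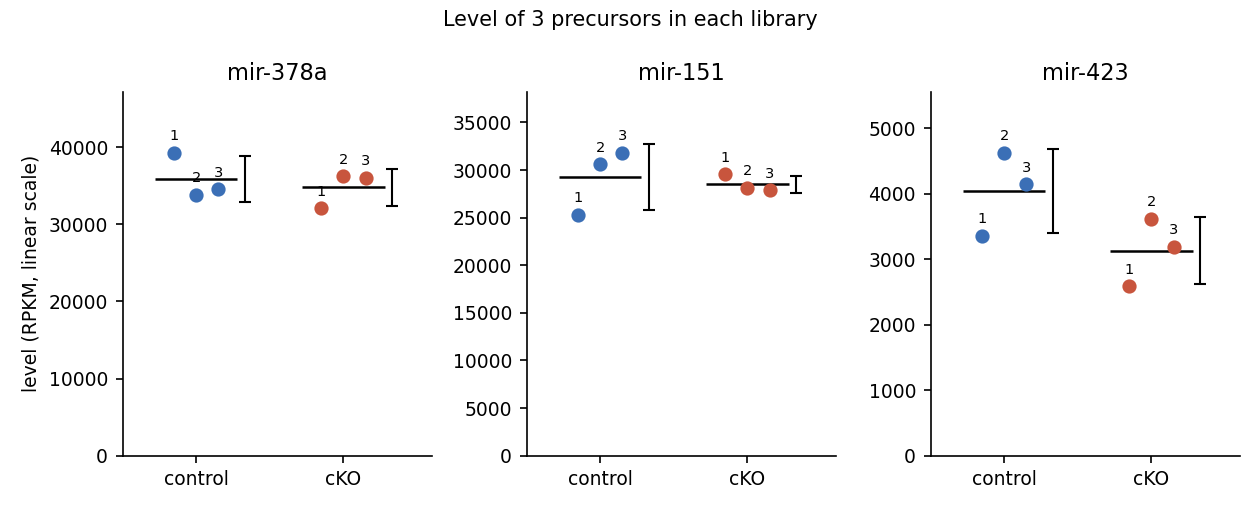
Level in RPKM (linear axis from 0) of mir-378a, mir-151 and mir-423 in the control and cKO libraries; points are libraries 1 to 3, horizontal lines are means and bars are SD (n = 3). The genotypes overlap in every panel, and mir-423 runs from 2591 to 3618 RPKM in cKO against 3358 to 4631 RPKM in control retina.

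With each of the 6 libraries left out in turn, the log2 difference of mir-378a ran from -0.085 to 0.023, that of mir-151 from -0.13 to 0.035 and that of mir-423 from -0.50 to -0.24. The sign of mir-378a turned without control 1 (0.023) and without cKO 1 (0.014), and that of mir-151 turned without control 2 (0.0060) and without control 3 (0.035). For mir-423 the difference was -0.24 without cKO 1, its lowest library, and -0.50 without control 1, its lowest control.

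Genotypes overlapped in 3 of the 3 precursors, against 26.5% of all 461 tested, a count that the choice of the members itself fixes. Over all tested precursors 69.4% rose and 1.74% fell (limma, Benjamini-Hochberg adjusted p below 0.05), and the median log2 difference was 0.74. Relative to that median mir-378a stood at -0.78, mir-151 at -0.77 and mir-423 at -1.11. RPKM is a share of the library, so these values do not show an amount per retina, and in whole retina fewer cells of a type and less RNA per cell cannot be told apart.

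The offset from the median, for which the members were picked, is given next for each cKO library. In cKO 1, 2 and 3 the median tested precursor stood 0.70, 0.80 and 0.76 above its own control mean on the log2 scale. Beside that median mir-378a stood at -0.86, -0.78 and -0.75, mir-151 at -0.68, -0.85 and -0.82 and mir-423 at -1.33, -0.95 and -1.09. Each precursor was set against its own control mean, so control values scatter around 0 by construction. In the control libraries they lay between -0.16 and 0.25 for mir-378a, between -0.082 and 0.065 for mir-151 and between -0.14 and 0.20 for mir-423.

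In the order of all 461 differences from the lowest, mir-423 was at place 13, mir-378a at 28 and mir-151 at 30. Among the 162 precursors averaging 1000 RPKM or more, of which 75.3% rose, the places were 5, 16 and 18, and 20 had a difference at or below 0. These 20 hold the 3 members, the miR-378 relatives mir-378b, mir-378c and mir-378d, mir-28c, all copies of mir-124, the miR-183 cluster (mir-182, mir-96 and mir-183), mir-92a-1 and mir-92a-2, mir-872, mir-335, mir-425, mir-484 and mir-21a. Next to mir-423 stood mir-872 (-0.41), mir-96 (-0.49) and mir-92a-2 (-0.52) on the lower side and mir-335 (-0.35), mir-92a-1 (-0.35) and mir-425 (-0.21) on the higher side. Of these mir-872, mir-96 and mir-335 fell (limma adjusted p = 0.021, 0.048 and 0.047), calls that ended when control 2, control 3, cKO 2 or cKO 3 was left out and, for mir-335, also cKO 1 (adjusted p = 0.055 to 0.18). The calls of mir-96 and mir-335 also ended without a variance trend (adjusted p = 0.091 and 0.067), and that of mir-96 with a filter at 100 RPKM (adjusted p = 0.055).

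**Figure D2:**
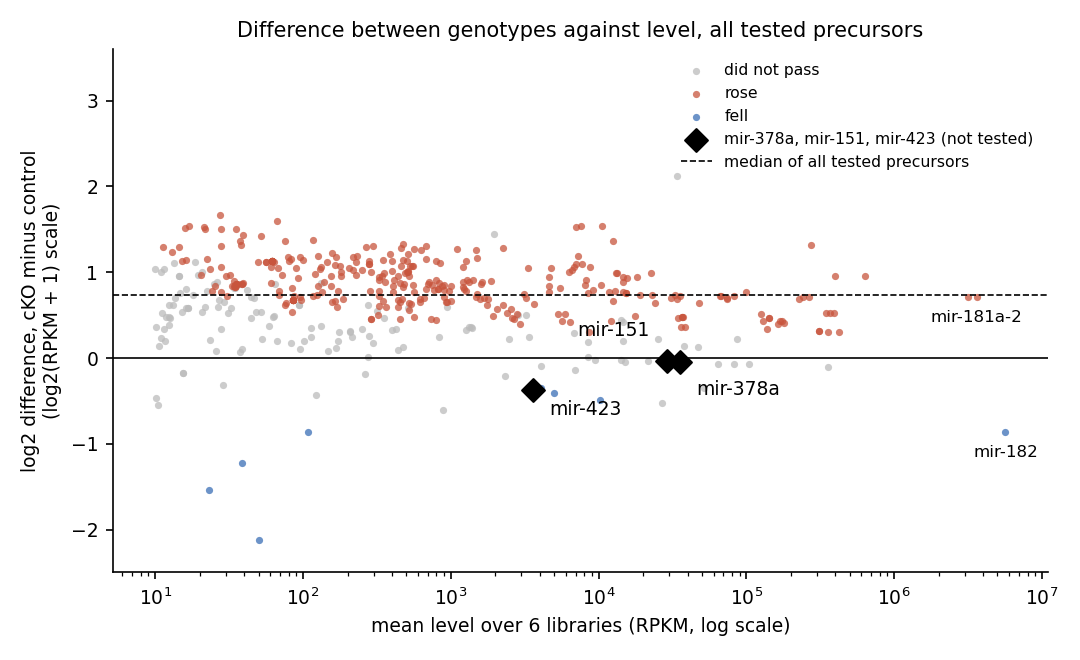
Log2 difference between genotypes (cKO minus control, log2(RPKM + 1) scale) against the mean level over 6 libraries (RPKM, log axis) for 461 tested precursors; colours give the limma call and diamonds the 3 precursors described here. The diamonds lie at -0.044, -0.030 and -0.37, below the dashed median of 0.74.

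The members held a small part of the miRNA reads. The precursor mir-378a took 0.237% ± 0.0196 of control and 0.230% ± 0.0156 of cKO library reads, mir-151 took 0.199% ± 0.0235 and 0.194% ± 0.00613, and mir-423 took 0.0441% ± 0.00701 and 0.0342% ± 0.00563 (SD over 3 libraries). Reads ranged from 13036 to 19391 per library for mir-378a, from 10389 to 15284 for mir-151 and from 1905 to 3480 for mir-423. The share of mir-423 in control 1, 0.0366%, had Wilson 95% bounds of 0.0353% and 0.0380%, and its share in cKO 2, 0.0394%, had bounds of 0.0380% and 0.0410%. Such bounds reflect the number of reads alone, and reads amplified by PCR are not all separate molecules. Counting error was at most 0.876% of the value for mir-378a, 0.981% for mir-151 and 2.29% for mir-423 in any library, while the coefficients of variation between control libraries were 8.29%, 11.8% and 15.9%.

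By level per length, mir-378a was above mir-151 and mir-151 above mir-423 in 6 of 6 libraries. The ratio of mir-378a to mir-151 in RPKM was 1.55 in control 1 and 1.09 to 1.29 in the other libraries, and that of mir-151 to mir-423 ran from 6.61 to 11.4. In mean control RPKM the 3 were at ranks 41, 48 and 108 of 855, and in cKO retina at ranks 52, 56 and 125. The variation between libraries within a genotype, as pooled SD on the log2 scale, was 0.11 for mir-378a, 0.13 for mir-151 and 0.24 for mir-423. Among the 162 abundant precursors 14.8%, 27.8% and 78.4% had a smaller pooled SD, respectively.

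The precursors next to the members in control level mostly rose, as did most abundant precursors. Next to mir-378a were mir-98, a let-7 relative (37339 ± 2867 RPKM in control), mir-27a (36359 ± 4974), mir-30c-2 (33767 ± 3118) and mir-92a-2 (32101 ± 10630; SD, n = 3 each). Next to mir-151 were mir-16-2, let-7d, let-7i and mir-125b-2, between 27030 and 30861 RPKM. Next to mir-423 were mir-190b, mir-484, mir-195a and mir-138-1, between 3930 and 4226 RPKM. Each member and each of its neighbours differed in mean control level by less than the larger of their SDs, so that their order is not resolved.

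Of these 12 neighbours 9 rose and none fell by limma. Over all tested precursors 69.4% rose, and among the 162 abundant ones 75.3% did, so the count of neighbours is near the background share. Examples are mir-98 at 0.65 (SE 0.13; limma adjusted p = 0.0017), let-7i at 0.47 (SE 0.12; adjusted p = 0.0062) and mir-138-1, a miRNA of neurons, at 1.54 (SE 0.15; adjusted p = 1.7e-04). The 3 that did not pass were mir-27a (0.14; adjusted p = 0.37), mir-92a-2 (-0.52; adjusted p = 0.064) and mir-484 (-0.093; adjusted p = 0.59). The rise of mir-16-2 (0.47; adjusted p = 0.023) was lost when control 1, control 2 or cKO 1 was left out (adjusted p = 0.057 to 0.081), and that of mir-30c-2 (0.37; adjusted p = 0.024) when control 2 or either of cKO 2 and cKO 3 was (adjusted p = 0.085 to 0.10). With control 1 left out mir-92a-2 fell by 0.82 (adjusted p = 0.0014), and with array weights it fell by 0.61 (adjusted p = 0.0040).

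The relatives of mir-378a moved with it from library to library. The precursor mir-378c stood at 24129, 20366 and 20997 RPKM in control 1 to 3 and at 19484, 22119 and 22051 RPKM in cKO 1 to 3, highest in control 1 and lowest in cKO 1 like mir-378a. Reads at mir-378c came to 90.4% to 92.1% of the reads at mir-378a, those at mir-378d to 70.9% to 72.8% and those at mir-378b to 54.8% to 57.1%, in every library. The reads of all precursors added up to between 1.55 and 1.86 library totals, so that a read can be listed at more than 1 precursor. The values of this family are thus not separate measurements, and which copy a read came from cannot be told apart. By limma none of these relatives passed: mir-378b stood at -0.024, mir-378c at -0.040 and mir-378d at -0.045 (adjusted p = 0.86, 0.78 and 0.75). Because they share reads with mir-378a, which was picked for not rising, these calls largely follow from that choice. They are not a test of the family apart from mir-378a.

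The miR-28 relatives of mir-151 were not all alike. The precursor mir-28a stood at 7644, 8936 and 8780 RPKM in control 1 to 3 and at 9222, 8429 and 7871 RPKM in cKO 1 to 3, lowest in control 1 like mir-151, with overlapping groups. It did not pass at 0.010 (SE 0.13; limma adjusted p = 0.94). The precursor mir-28c, whose reads came to 96.2% to 98.9% of those at mir-28a and which is therefore not a separate measurement, stood at -0.021 (adjusted p = 0.88).

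The precursor mir-708 stood at 7276, 8354 and 8166 RPKM in control 1 to 3 and at 9686, 8800 and 8543 RPKM in cKO 1 to 3. All 3 cKO libraries lay above the control libraries, as in 71.6% of all tested precursors, but mir-708 did not pass at 0.18 (SE 0.13; limma adjusted p = 0.21). The fourth relative, mir-28b, stood at 256, 216 and 227 RPKM in control 1 to 3 and at 377, 533 and 456 RPKM in cKO 1 to 3, from 119 to 295 reads per library. It rose 1.94-fold (log2 0.96, SE 0.17; adjusted p = 0.0011). Over both families 1 of 7 relatives rose and 6 did not pass as the values were deposited, while 69.4% of all tested precursors rose. The miR-378 relatives share reads with mir-378a, which was picked for not rising, and mir-28c is not separate from mir-28a. The 7 are thus not 7 separate results, and the low count partly restates the choice of the members.

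**Figure D3:**
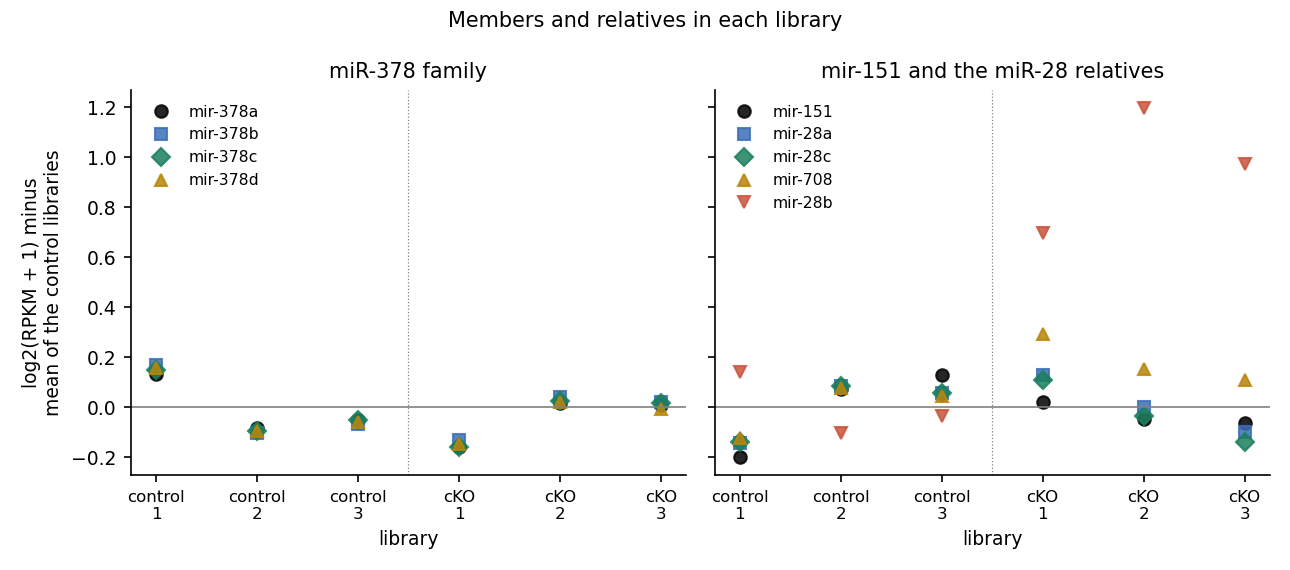
Log2(RPKM + 1) of each precursor minus its mean over the control libraries, by library, for the miR-378 family on the left and for mir-151 with its miR-28 relatives on the right. The 4 miR-378 precursors lie on top of one another in each library, and on the right mir-28b is the precursor that stands apart in the cKO libraries (1.94-fold higher in the mean).

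Likeness of pattern was measured as the Pearson correlation of log2(RPKM + 1) over the 6 libraries with each of 305 other precursors of at least 100 RPKM, and is given as a description. The precursors most like mir-378a were mir-378c, mir-378d and mir-378b (r = 0.998, 0.992 and 0.981), which share reads with it as described above. Those most like mir-151 were mir-183, a member of the sensory miR-183 cluster (r = 0.973), and mir-124-3 and mir-124-2, copies of a pan-neuronal miRNA (r = 0.949 for both). Those most like mir-423 were mir-92a-2 (r = 0.881), mir-92a-1 (r = 0.842) and mir-872 (r = 0.796). The members were not alike among themselves: r was -0.796 between mir-378a and mir-151, 0.109 between mir-378a and mir-423 and 0.41 between mir-151 and mir-423.

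Control 1 held extreme values in these patterns. It had the highest mir-378a and the lowest mir-151 and mir-423 among control libraries. It also had 230841 RPKM of mir-183 against 432932 and 466232 RPKM in control 2 and 3, and 83955 RPKM of mir-124-3 against 120098 and 116049 RPKM. Neither passed over the 6 libraries (limma log2 difference -0.11 for mir-183 and -0.071 for mir-124-3, adjusted p = 0.68 for both), while mir-183 fell once control 1 was left out (-0.43; adjusted p = 0.023).

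The difference of the members depended on what they were set against. Against mir-182, the photoreceptor-rich precursor whose mean share of reads was 54.7% in control and 30.2% in cKO libraries, they were higher in cKO retina. There were 4.32 ± 0.179 mir-378a reads per 1000 mir-182 reads in control and 7.69 ± 1.26 in cKO libraries, 3.65 ± 0.572 and 6.46 ± 0.465 for mir-151, and 0.810 ± 0.156 and 1.15 ± 0.278 for mir-423 (SD, n = 3 each). The genotypes did not overlap in this ratio for mir-378a and mir-151 and overlapped for mir-423.

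Against mir-181a-2, a precursor of the inner retina whose mean share was 20.9% in control and 34.2% in cKO libraries, the members were lower. There were 11.4 ± 0.996 mir-378a reads per 1000 mir-181a-2 reads in control and 6.71 ± 0.233 in cKO libraries, 9.56 ± 1.33 and 5.69 ± 0.414 for mir-151, and 2.12 ± 0.327 and 0.997 ± 0.141 for mir-423 (SD, n = 3 each). The genotypes did not overlap in this ratio for any of the 3. The members were picked for not sharing the rise, while mir-182 and mir-181a-2 moved in opposite directions. The directions of both ratios therefore follow largely from that choice and from the denominators. How many of all tested precursors are without overlap in these ratios was not worked out. The separation of the genotypes in them is thus not shown to be particular to the members.

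Other ways of scaling the libraries moved the members further below 0. With median-of-ratios scaling, in which the middle precursor of each library is aligned and which brought the median of all tested precursors to 0.014, the log2 differences were -0.78 for mir-378a, -0.77 for mir-151 and -1.11 for mir-423. Totals without mir-182 (median 0.12) gave -0.67, -0.66 and -0.995, totals without the 10 most abundant precursors (median 0.24) gave -0.56, -0.54 and -0.88, and quantile normalization (median 0.042) gave -0.42, -0.52 and -0.96. The first 3 of these scalings shift every precursor by nearly the same amount and so nearly keep the order of the differences. Quantile normalization can change that order more, and under it mir-378a was at place 66 from the lowest, mir-151 at 50 and mir-423 at 14 of 461.

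Relatives changed call with the scaling. As deposited none of the 7 fell, against 1.74% of all tested precursors. With median-of-ratios scaling 6 of 7 fell, among them mir-28a by 0.73 (limma adjusted p = 0.0044), mir-378c by 0.78 (adjusted p = 0.0040) and mir-708 by 0.55 (adjusted p = 0.017), while mir-28b no longer passed at 0.22 (adjusted p = 0.40). The miR-378 relatives share reads with mir-378a, which was picked for its difference, and mir-28c is not separate from mir-28a. The 6 falls are thus not 6 separate results, and those of the miR-378 relatives largely follow from the choice of mir-378a. Over all tested precursors 46 fell and 10 rose under that scaling, against 8 and 320 as deposited.

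**Figure D4:**
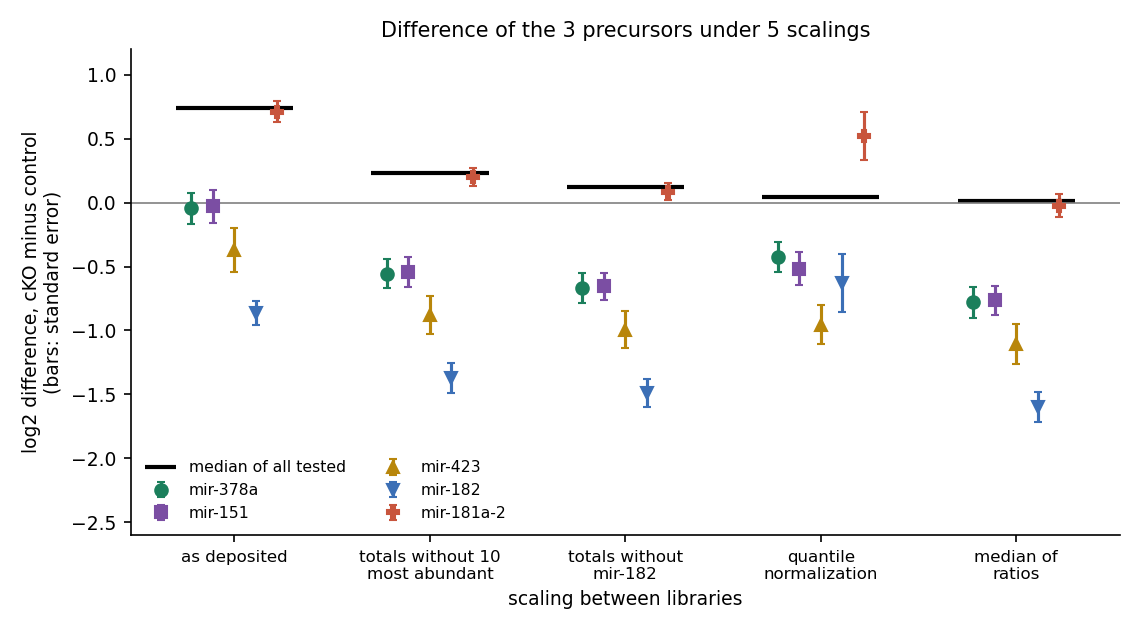
Log2 difference (cKO minus control, bars are SE) of mir-378a, mir-151, mir-423, mir-182 and mir-181a-2 under 5 ways of scaling the libraries, with the median of all tested precursors as a black line. As deposited mir-378a and mir-151 lie at -0.044 and -0.030, and with median-of-ratios scaling at -0.78 and -0.77, in each case below the median line.

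Other intronic miRNAs and other reference miRNAs mostly rose as deposited, as did 69.4% of all tested precursors. Of 44 further precursors in introns of protein-coding genes 37 rose, 2 fell and 5 did not pass by limma, with a median log2 difference of 0.66 against 0.74 over all tested precursors. Among those that rose were mir-204 (log2 0.96, SE 0.11; adjusted p = 2.6e-04) and mir-211 (log2 0.96, SE 0.11; adjusted p = 2.6e-04), which lie in Trpm genes and share reads. Those that fell were mir-335 and mir-483, and those that did not pass were mir-28a, mir-708, mir-499, mir-191 and mir-425. Of 15 other precursors whose miRNAs are in wide use as references 14 rose, none fell and mir-191 did not pass, with a median of 0.52. The 2 lists share some precursors, and both hold copies with near-equal differences, such as mir-26a-1 (0.521) and mir-26a-2 (0.522). Their counts are therefore not counts of separate rises. With median-of-ratios scaling 2 of the 44 rose and 7 fell (median -0.075), and of the 15 none rose and mir-30e fell (median -0.22).

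Most markers of retinal cell types other than photoreceptors rose as deposited, again beside 69.4% of all tested precursors. Summed RPKM of the photoreceptor list (mir-182, mir-183 and mir-96) ran from 7568000 to 7894000 in control and from 4038000 to 4912000 in cKO libraries, and 2 of 3 members fell. Summed RPKM of the inner retina list (4 copies of mir-181a and mir-181b) ran from 5318000 to 5719000 and from 8572000 to 9429000, and 4 of 4 rose. This sum can count a read at more than 1 copy, so its size cannot be set against that of the photoreceptor list. The Müller glia list (3 copies of mir-9) and the pigment epithelium list (mir-204 and mir-211) rose in 3 of 3 and 2 of 2 members. The copies within each of these lists have near-equal differences (0.72 for each mir-9 copy, 0.96 for mir-204 and mir-211) and are not separate rises. The neuronal list rose in both copies of mir-138, while none of the 3 mir-124 copies passed. With median-of-ratios scaling no member of the inner retina, Müller glia and pigment epithelium lists rose or fell, the 3 photoreceptor precursors and the 3 mir-124 copies fell, and both mir-138 copies rose.

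Markers of tissue outside the neural retina were present too. The lens and cornea list (mir-184, mir-31 and mir-205) ran from 2499 to 54380 summed RPKM in control and from 25400 to 63460 in cKO libraries, and none of its 3 members passed. Rises were called in 3 of 3 vessel, 2 of 3 red cell, 2 of 2 leukocyte and 2 of 4 muscle precursors as deposited, counts too small to set against the 69.4% of all tested precursors, and with median-of-ratios scaling in mir-126 of the vessel list alone. The part of these cell types in the levels of mir-378a, mir-151 and mir-423 was not tested.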

How the data were processed

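The authors deposited RPKM values of 855 miRNA precursors in 6 libraries, with both arms of a hairpin in a single value. Per the submitters' processing notes Bowtie and mm9 were used. Versions, annotation and how reads with several possible places were handled: not given in the sources used here. RPKM multiplied by precursor length came in whole steps of 1 read in each library (100.0% of 4158 values in 693 precursors of listed length, tolerance 0.01 reads), which gave reads and library totals. Lengths of 143 other precursors were inferred as the shortest giving whole reads, right in 99.4% of 346 checked.

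Differences were fitted over all 461 precursors of at least 10 RPKM in the mean with limma 3.58.1 (R 4.3.3; eBayes with trend) on log2(RPKM + 1), two-sided, with Benjamini-Hochberg adjustment at 0.05. The log2 scale with a pseudocount of 1 understates changes of low precursors. The fit was tested on simulated data, where it recovered 63.8% of 1.5-fold, 90.9% of 2.0-fold and 98.5% of 4.0-fold changes. Those data had equal odds of rise and fall, unlike the broad rise here, so they do not show how the fit handles it. Replicate numbers and genotypes come from the labels' descriptions. The members, the lists and the naming rule were chosen with earlier results of these data known. The rule names the members, their sequence relatives, the 3 most like in pattern, the 2 nearest in level on each side, the 3 nearest in difference on each side, mir-182, mir-181a-2 and some list members. mir-21a and mir-483 were named after their values were seen. Alternatives covered pseudocount, filter, scaling, variance model, library weights, a replicate block, voom on recovered reads, summed near-identical precursors and each library left out. Wilson intervals are from scipy 1.17.1.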

Additional observations from a re-analysis of the deposited data

How the results depend on the processing

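The count that rose (320 as deposited) was 10, 12, 57 and 20, and the count that fell (8) was 46, 29, 29 and 36, with median-of-ratios scaling, quantile normalization, totals without the 10 most abundant precursors and totals without mir-182, in that order. The median log2 difference (0.74) was then 0.014, 0.042, 0.24 and 0.12. RPKM values cannot tell which scaling is nearer to amounts per retina. The count that fell was 4 with a filter at 100 RPKM, which tests fewer precursors, and 14 with array weights. Leaving out each library gave 252 to 322 that rose, 4 to 12 that fell and medians of 0.71 to 0.805. The lowest counts that fell, 4 and 5, came from leaving out control 2 or control 3 and cKO 2 or cKO 3, and the highest, 12, from leaving out control 1. The cause of these shifts was not tested.

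With median-of-ratios scaling the sign turned to negative for mir-28a (-0.73), mir-708 (-0.55), mir-98 (-0.091), mir-27a (-0.60), mir-30c-2 (-0.37), mir-16-2 (-0.26), let-7d (-0.26), let-7i (-0.27), mir-125b-2 (-0.017) and mir-181a-2 (-0.023). With totals without mir-182 it turned for mir-28a (-0.62), mir-708 (-0.44), mir-27a (-0.49), mir-30c-2 (-0.26), mir-16-2 (-0.15), let-7d (-0.14) and let-7i (-0.16). With totals without the 10 most abundant precursors it turned for mir-28a (-0.50), mir-708 (-0.33), mir-27a (-0.38), mir-30c-2 (-0.15), mir-16-2 (-0.038), let-7d (-0.031) and let-7i (-0.043), and with quantile normalization for mir-28a (-0.71), mir-708 (-0.52) and mir-27a (-0.28).

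The log2 differences of mir-378a, mir-151 and mir-423 moved by less than their pooled SD under the other pseudocounts, array weights, voom and each library left out. The other filters, the fit without trend and the replicate block leave these differences unchanged by construction. Summing near-identical precursors joined none of the 3 to another precursor, so it could not move them either. Same-numbered libraries deviated from their group means with correlations of 0.187, 0.264 and 0.0090 for numbers 1, 2 and 3. Between libraries of different number the correlations ran from -0.217 to 0.048. All of these lay below the values of numbers 1 and 2, and some lay above that of number 3. The labels do not say that numbers pair libraries, and whether numbers share a batch was not tested. The main fit has no replicate block. With the replicate block 338 precursors rose and 10 fell; among named precursors mir-92a-2 and mir-92a-1 then fell (adjusted p = 0.014 and 0.043) and the calls of mir-96 and mir-335 ended (adjusted p = 0.052 and 0.054), and it changed no other call of a precursor named with its difference. With array weights mir-183, mir-92a-1 and mir-425 also fell (adjusted p = 0.040, 0.011 and 0.047), without a variance trend the calls of mir-30c-2 and mir-16-2 ended (adjusted p = 0.053 and 0.055), and with near-identical precursors summed that of mir-96 ended (adjusted p = 0.051). Summing used hairpins of 553 precursors, not those of mir-378a and mir-151. With 3 pools per genotype differences of the size of the SE of mir-423 (0.17) are not resolved.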
